A study of Homo sapiens with 3 samples.

Results

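The genes described here are 33 of the 58735 genes listed in the count files: 7 enzymes of the mevalonate pathway, 11 enzymes from squalene to cholesterol, 5 SREBP factors and regulators, 2 sterol transport proteins and 8 enzymes of fatty acid synthesis. They were taken by gene name and had been picked from these same libraries, because cholesterol genes seemed to move in opposite ways in the 2 libraries labelled PD-L1 knockdown. Their values therefore describe the libraries and were given no test. All 33 had at least 10 counts summed over the 3 libraries, as did 19849 genes in all, and none was lost to that minimum.

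RNA was sequenced from DU145, a line of human prostate cancer cells whose growth does not need androgen. There were 3 libraries: 1 control, 1 labelled PD-L1 knockdown 1 and 1 labelled PD-L1 knockdown 2. PD-L1, encoded by CD274, is the cell surface ligand of the inhibitory T cell receptor PD-1. The methods of the study describe lentiviral shRNA in the pLKO.1 vector with selection in puromycin, and the empty vector as the control of such lines. For sequencing, the methods name the cells as DU145 for the control and as DU145 PD-L1sh1/2 for the knockdowns. The methods list the sequence of 1 shRNA against PD-L1, and which shRNA each library carried is not given there. Whether the sequenced control carried the empty vector and whether a line was a clone are not given in the sources used here. Medium with FBS was shared by all 3, named DMEM in the labels and EMEM in the study's methods. The series text names BCPAP, a thyroid cancer line, in place of DU145. Each condition was 1 library, so a difference compares libraries, not conditions, and has no replicate check. A sample of bulk RNA cannot tell fewer cells of a type from less RNA per cell.

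The libraries held 14733088, 14738298 and 15786457 counts, with 24735 to 25617 genes detected. For CD274, 204 counts were found in the control, and 213 and 224 in the libraries labelled knockdown 1 and 2. Its ratio to the control was 1.05 (95% counting interval 0.861 to 1.28) and 1.03, where the interval began at 0.845 and also spanned 1. Knockdown was thus not seen at the RNA level in these libraries. The study states that its knockdown lines, DU145 among them, were verified by western blot for PD-L1 protein, which was not examined here. Which library is a knockdown, and so every direction below, rests on the labels. The control's counts stand under a heading with the name RBM45, a gene that had 150, 160 and 152 counts. Of the epithelial markers, KRT8 and KRT18 had 7784 to 19056 counts and EPCAM and CDH1 755 to 2940, while KLK3, the gene of prostate-specific antigen, was listed at 0 in every library. Of 6 thyroid markers, 5 stayed at 0 to 29 counts and FOXE1 had 645 to 738. The 4 leukocyte and 3 endothelial markers had 0 to 15 counts, and the 4 fibroblast markers 0 to 149, the highest being COL1A1.

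Cells make cholesterol from acetyl-CoA through mevalonate, farnesyl diphosphate, squalene and lanosterol, and fatty acids from acetyl-CoA through malonyl-CoA. The genes of both routes are controlled by SREBP2 and SREBP1, the products of SREBF2 and SREBF1. These membrane proteins are carried from the endoplasmic reticulum to the Golgi by SCAP when sterol is low, and are cut there to release a transcription factor. When sterol is plentiful, INSIG1 and INSIG2 hold SCAP back. Lipid synthesis under SREBP is known for being high in many prostate cancers, where androgen is among its stimuli.

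SREBP binds sterol regulatory elements, and NF-Y, which binds CCAAT, acts with it at many of these promoters. The table of RefSeq promoters (GRCh38.p14, 250 bases before to 50 after the start) held 29 of the 33 genes, and the other 4 are ACAT2, FDFT1, SQLE and FASN. CCAAT was searched on both strands and lay in the promoters of 21 of the 29 (72.4%), against 39.7% of the 27305 genes in the table and 34.6% of its 35116 windows. PMVK, CYP51A1, INSIG2, SREBF1, SCAP, NPC1, ELOVL6 and FADS1 had no CCAAT in these windows. The letters TCACNCCAC, a form of the sterol regulatory element that does not overlap CCAAT here, were found on either strand in 1 of the 29 genes (3.45%), SREBF2, and in 1.39% of all genes. A match to these letters is a description of the sequence and not a binding site. Below are 4 promoters, read from 5′ to 3′ on the gene's strand and kept clear of annotated UTR and coding bases and of the gene's own exons, with both motifs in capitals (CCAAT reads ATTGG on the other strand). STARD4 is shown as the gene that was lower in both libraries labelled knockdown, MVD and LSS as enzymes that were higher in the library labelled knockdown 2, and SREBF2 for its sterol element.
STARD4: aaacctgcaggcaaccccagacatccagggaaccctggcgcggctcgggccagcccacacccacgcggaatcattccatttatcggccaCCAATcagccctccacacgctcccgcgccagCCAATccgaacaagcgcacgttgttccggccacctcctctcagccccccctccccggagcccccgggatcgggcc
MVD: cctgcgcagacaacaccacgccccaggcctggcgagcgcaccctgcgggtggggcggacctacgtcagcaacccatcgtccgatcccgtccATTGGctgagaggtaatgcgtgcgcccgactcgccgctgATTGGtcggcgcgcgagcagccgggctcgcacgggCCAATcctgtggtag
LSS: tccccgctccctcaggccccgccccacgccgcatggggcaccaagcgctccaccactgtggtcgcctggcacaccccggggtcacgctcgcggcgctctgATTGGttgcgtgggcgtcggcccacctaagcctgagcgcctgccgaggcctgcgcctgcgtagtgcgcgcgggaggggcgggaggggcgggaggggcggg
SREBF2: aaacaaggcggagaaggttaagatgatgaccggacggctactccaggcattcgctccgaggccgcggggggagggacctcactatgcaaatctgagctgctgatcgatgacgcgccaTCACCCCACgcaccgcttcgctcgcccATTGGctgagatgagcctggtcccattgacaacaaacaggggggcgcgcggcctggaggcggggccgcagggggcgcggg
The stretch of STARD4 lies at chr5:111512591-111512785 on the minus strand and holds 2 CCAAT motifs. That of MVD, at chr16:88663162-88663341 on the minus strand, holds 3. In LSS, chr21:46228825-46229024 on the minus strand holds 1. The SREBF2 stretch at chr22:41832855-41833078 on the plus strand holds 1 sterol element with 1 CCAAT after it.

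The 33 genes were well expressed. Their mean counts ran from 312 to 23632 with a median of 1570, against a median of 625 over the 10861 well-counted genes, those that average 100 counts or more. Together they took 0.781% of all control counts, and 0.752% and 0.815% of those of the libraries labelled knockdown 1 and 2. Per gene length, the fatty acid enzymes stood highest. SCD, the desaturase that makes oleate from stearate, was first in each library with 314, 265 and 294 FPKM. ACLY, which supplies cytosolic acetyl-CoA from citrate, followed with 125, 129 and 134 FPKM, and FASN, the fatty acid synthase itself, with 85.1, 91.9 and 103 FPKM. DHCR7, the reductase that forms cholesterol from its immediate precursor, came next and was the highest of the sterol enzymes at 77.6, 80.4 and 87.6 FPKM. The lowest listed levels were those of CYP51A1 (4.3, 6.04 and 6.83 FPKM), HSD17B7 (4.65, 4.47 and 4.91 FPKM) and INSIG2 (5.01, 5.87 and 5.74 FPKM). The level of CYP51A1 is uncertain, because 83.2% of its exonic bases are also those of AC000120.2, listed at 0 on the same strand. If shared reads were left out, its FPKM would be too low. The order of the first 4 genes was the same in the 3 libraries. STARD4 moved furthest down the order, from rank 23 in the control to 28 and 27. Neighbours in the middle of the order lay close, such as IDI1 and FDPS at 36.8 and 35.8 FPKM in the control, and changed places between libraries.

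**Figure D1:**
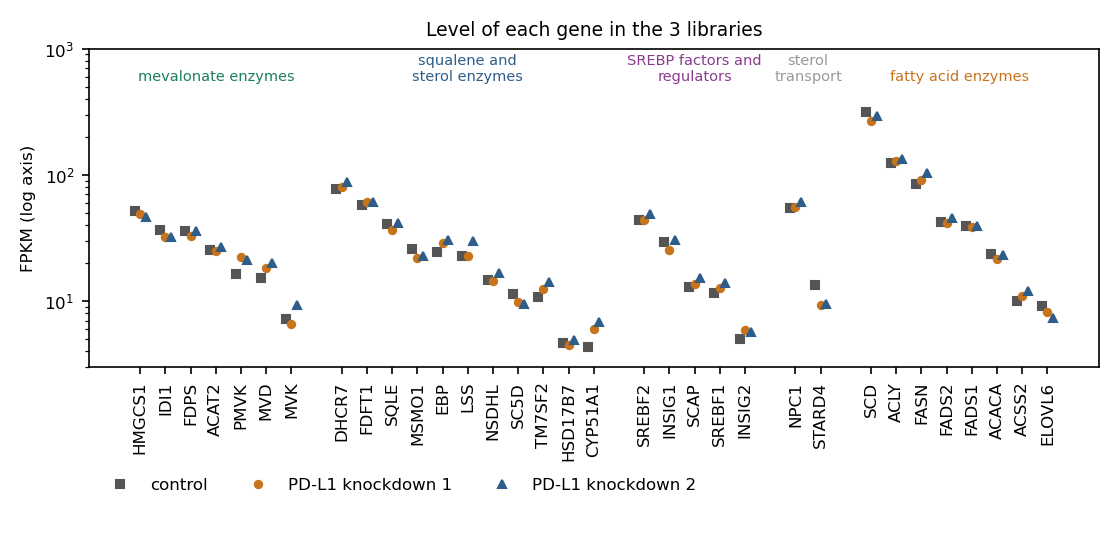
FPKM (log axis) of the 33 genes in the control (squares), the library labelled knockdown 1 (circles) and the library labelled knockdown 2 (triangles), grouped by role and ordered by the control. SCD stands highest at 265 to 314 FPKM. CYP51A1, whose level is uncertain because it overlaps AC000120.2, has the widest spread between libraries in proportion, 4.3 to 6.83 FPKM.

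In the comparison of the library labelled knockdown 1 with the control, most of the 33 genes lay near the ratio of 1. A gene was counted as higher when its TMM-scaled count was more than 25% above the control and as lower when it was more than 20% below, the same step on a log scale. By this limit only CYP51A1 and PMVK were higher and STARD4 lower. Those are 2 and 1 of 33, or 6.06% and 3.03%, whereas of the well-counted genes 6.73% were higher and 4.30% lower. Over all 19849 tested genes, many of them with few counts, the shares were 18.5% and 17.8%. The median log2 ratio of the 33 was -0.02, beside 0.01 for all tested genes. Nearest to the limit among the genes past it were PMVK (ratio 1.36) and CYP51A1 (1.4), and among those short of it MVD (1.19) and MSMO1 (0.844). Past 1.5-fold there was none of the 33 in either direction, against 0.829% higher and 0.405% lower of the well-counted genes. The counting interval lay above 1 for 9 of the 33 (27.3%) and below 1 for 11 (33.3%). Of the well-counted genes it did so for 22.2% and 18.4%. Intervals narrow as counts rise, and the 33 genes had a median mean count of 1570 against 625 for that background. Shares by interval are therefore not a like comparison, here and below.

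The library labelled knockdown 2 stood further from the control. CYP51A1, MVD, LSS, TM7SF2, PMVK and MVK were higher past the limit and STARD4 and ELOVL6 were lower, which is 6 and 2 of 33 (18.2% and 6.06%). Of the well-counted genes 13.0% were higher and 10.8% lower, and of all tested genes 22.2% and 21.5%. The median log2 ratio of the 33 was 0.09, beside -0.00 for all tested genes. Only CYP51A1 was past 1.5-fold, against 1.92% higher and 1.54% lower of the well-counted genes. Intervals lay above 1 for 18 genes (54.5%) and below 1 for 7 (21.2%), where the well-counted genes gave 28.6% and 27.6%. ELOVL6 (0.79) and PMVK (1.29) stood just past the limit, SC5D (0.816) and EBP (1.22) just short of it. The genes had been chosen by their ratios to this control, so these counts are set beside the background as a description.

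Between the libraries labelled knockdown 2 and knockdown 1, 27 of the 33 genes were higher in the former and 6 lower. Of the 10861 well-counted genes, 5244 were higher and 5617 lower. MVK and LSS were higher past the limit and none was lower, 6.06% against 4.77% higher and 5.52% lower of the well-counted genes. The shares of all tested genes were 17.6% and 17.4%. None was past 1.5-fold, beside 0.442% and 0.718% of the well-counted genes. The interval lay above 1 for 18 genes (54.5%) and below 1 for ELOVL6 alone (3.03%), against 18.1% and 19.4% of the well-counted genes. The median log2 ratio was 0.13, beside -0.00 for all tested genes. INSIG1 (1.2) and NSDHL (1.16) were the nearest of the genes short of the limit.

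The opposite movement for which the genes were picked was not found past the limit. No gene was past the limit upward in one library labelled knockdown and downward in the other, and none had a counting interval above 1 in one and below 1 in the other. The sign of the log2 ratio differed for 8 genes, ACAT2, MVK, FDPS, SQLE, NSDHL, HSD17B7, INSIG1 and FADS2, each below the control in the library labelled knockdown 1 and above it in the library labelled knockdown 2. Of these 8, MVK alone was past the limit between the libraries labelled knockdown. The shares of all genes that moved in opposite ways by the limit, by the interval or by sign were not counted. These counts therefore describe the picked genes only. Whether opposite movement was rarer or more common among them than among other genes was not tested. Both ratios use the same control library, so they are not independent.

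**Figure D2:**
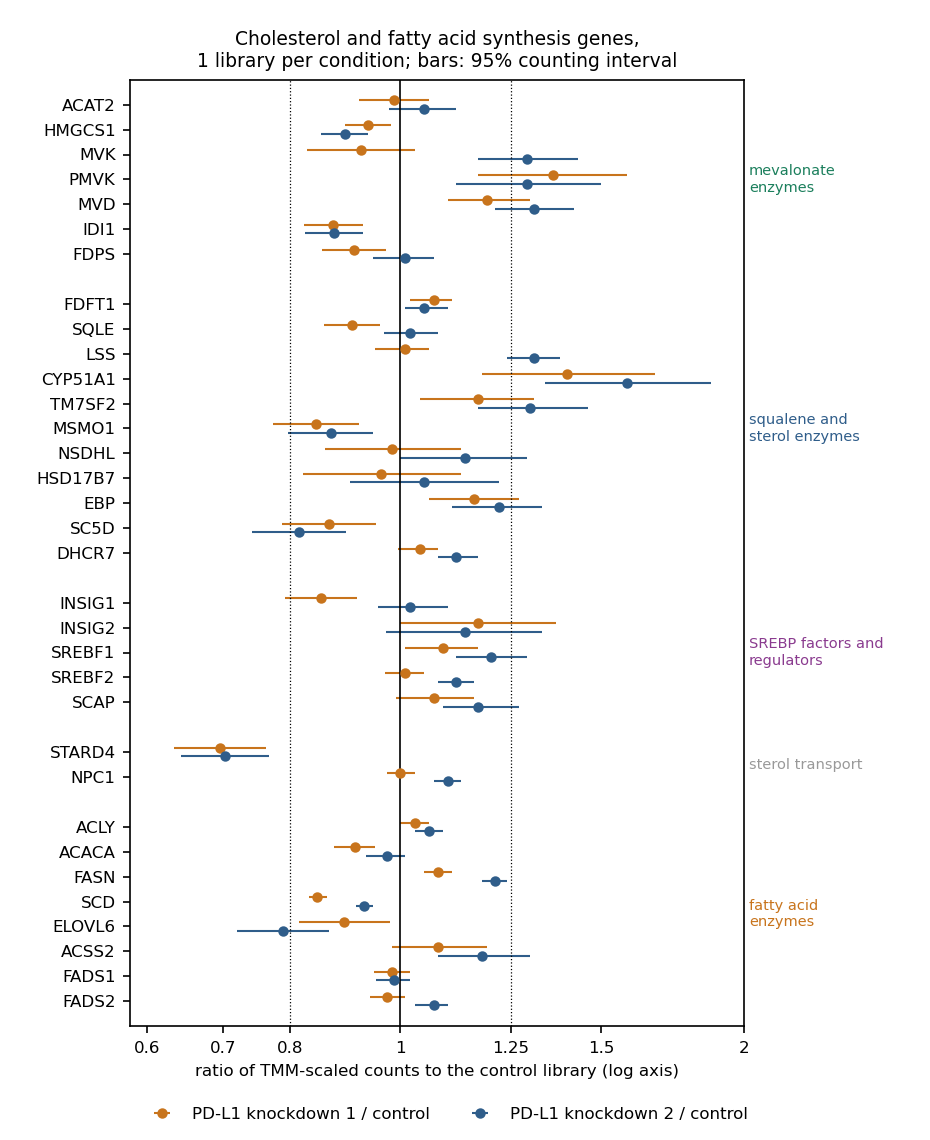
Ratio of TMM-scaled counts to the control (log axis) of each of the 33 genes in the library labelled knockdown 1 (orange) and knockdown 2 (blue), with exact 95% counting intervals as bars and dotted lines 25% above and 20% below the control. STARD4 lies below the lower line in both libraries and CYP51A1 and PMVK above the upper one.

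Of the 7 mevalonate enzymes, 1 was higher past the limit in the library labelled knockdown 1 and 3 in the library labelled knockdown 2. None was lower in either. Among well-counted genes, 6.73% and 13.0% were higher by the same limit in these libraries, and 4.30% and 10.8% lower. PMVK (chromosome 1, 154924734 to 154936991), the phosphomevalonate kinase, had 311 control counts, against 422 and 431 in the libraries labelled knockdown 1 and 2. Its ratio to the control was 1.36 (95% counting interval 1.17 to 1.58) and 1.29 (1.12 to 1.5), and the libraries labelled knockdown lay close to each other with a ratio of 0.95 (0.828 to 1.09). MVD (chromosome 16, 88651935 to 88663161), the decarboxylase that yields isopentenyl diphosphate, had 1069, 1271 and 1504 counts. Its ratio was 1.19 (1.1 to 1.3) in the library labelled knockdown 1 and 1.31 (1.21 to 1.42) in the library labelled knockdown 2, so the control was the lowest of the 3.
MVK (chromosome 12, 109573255 to 109598117), the mevalonate kinase, was the gene with the widest gap between the libraries labelled knockdown. Its counts were 689 in the control, 634 in knockdown 1 and 955 in knockdown 2. The ratio to the control was 0.924 (0.828 to 1.03) and 1.29 (1.17 to 1.43), and the ratio between the libraries labelled knockdown was 1.4 (1.27 to 1.55). Control and knockdown 1 were thus alike within counting error, and knockdown 2 was above both. MVK shares 4.72% of its exonic bases with MMAB, a cobalamin enzyme on the opposite strand, which had 446, 493 and 520 counts, and whether the counting used strand is not given. The remaining 4 enzymes were within the limit. The lowest was IDI1, the isomerase of isopentenyl diphosphate, with 2376, 2066 and 2224 counts and ratios of 0.873 (0.823 to 0.927) and 0.874 (0.825 to 0.927). HMGCS1, which makes HMG-CoA, had 3635, 3392 and 3480 counts, ACAT2, the acetoacetyl-CoA thiolase, 1617, 1590 and 1812, and FDPS, the farnesyl diphosphate synthase, 1976, 1792 and 2128.

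Of 11 enzymes from squalene to cholesterol, 1 was higher past the limit in the library labelled knockdown 1, and 3 in knockdown 2. None was lower in either, beside the same shares of well-counted genes, 6.73% and 13.0% higher and 4.30% and 10.8% lower. CYP51A1 (chromosome 7, 92112151 to 92134803), the lanosterol demethylase, had 229 control counts, against 320 and 387 in the libraries labelled knockdown 1 and 2. Its ratios of 1.4 (1.18 to 1.67) and 1.58 (1.34 to 1.87) were the highest of the 33 in both comparisons. Its values are uncertain, because 83.2% of its exonic bases are also those of AC000120.2 on the same strand, which was listed at 0 in each library. A count that leaves out reads shared by 2 genes would hold only part of the reads of CYP51A1, and how such reads were treated is not given in the sources used here.
LSS (chromosome 21, 46188141 to 46228824), the lanosterol synthase, had 2448, 2451 and 3435 counts. The first pair was alike, at a ratio of 1.01 (0.95 to 1.06), and the library labelled knockdown 2 was above both, at 1.31 (1.24 to 1.38) to the control and 1.3 (1.24 to 1.37) to the library labelled knockdown 1. TM7SF2 (chromosome 11, 65111845 to 65116384), a sterol reductase of the endoplasmic reticulum, had 543, 631 and 758 counts, with ratios of 1.17 (1.04 to 1.31) and 1.3 (1.17 to 1.46) to the control.
The other 8 stayed within the limit in all comparisons. The oxidase MSMO1 and the desaturase SC5D, which act on methyl groups and on a ring bond of sterols, were at the low end. MSMO1 had 1112, 934 and 1035 counts (ratios of 0.844 and 0.869) and SC5D 948, 817 and 828 (0.866 and 0.816). At the high end was EBP, the sterol isomerase, with 885, 1021 and 1154 counts and ratios of 1.16 (1.06 to 1.27) and 1.22 (1.11 to 1.33). FDFT1, the squalene synthase, had 4424, 4703 and 4989 counts, and SQLE, the squalene epoxidase, 2595, 2344 and 2837. NSDHL, HSD17B7 and DHCR7, which act on later sterol intermediates, had ratios of 0.962 to 1.04 in the library labelled knockdown 1 and 1.05 to 1.14 in the library labelled knockdown 2. HSD17B7 shares 22.5% of its 31-base words with its pseudogene HSD17B7P2, which had 57, 29 and 22 counts, so that reads of the pair may have been split.

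None of the 5 SREBP factors and regulators was past the limit in any comparison. By this limit 6.73% of the well-counted genes were higher and 4.30% lower in the library labelled knockdown 1, and 13.0% and 10.8% in the library labelled knockdown 2. Between the libraries labelled knockdown the shares were 4.77% and 5.52%. SREBF1 (chromosome 17, 17810399 to 17837002) had 1379 control counts, against 1490 and 1776 in the libraries labelled knockdown 1 and 2, ratios of 1.09 (1.01 to 1.17) and 1.2 (1.12 to 1.29). SREBF2 (chromosome 22, 41833079 to 41907308) had 4928, 4948 and 5895 counts, ratios of 1.01 (0.969 to 1.05) and 1.12 (1.08 to 1.16). SCAP (chromosome 3, 47413694 to 47477126) had 1231, 1315 and 1547 counts, ratios of 1.07 (0.992 to 1.16) and 1.17 (1.09 to 1.27). For these 3 genes the library labelled knockdown 2 stood highest and its interval to the control lay above 1.
INSIG1 and INSIG2, the paralogous anchors of SCAP, differed from each other. INSIG1 (chromosome 7, 155297776 to 155310235), itself known as a target of SREBP, had 1600, 1358 and 1753 counts. It was lowest in the library labelled knockdown 1, with a ratio of 0.852 (0.792 to 0.917), and near the control in the library labelled knockdown 2, with a ratio of 1.02 (0.956 to 1.1). The ratio between the libraries labelled knockdown was 1.2 (1.12 to 1.29). INSIG2 (chromosome 2, 118088452 to 118110997) had 294, 343 and 358 counts, with ratios of 1.17 (1.0 to 1.37) and 1.14 (0.972 to 1.33). At this depth its difference from the control was not detectable.

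STARD4 (chromosome 5, 111496033 to 111512590), a carrier of cholesterol between membranes and a known target of SREBP2, was the member furthest below the control. Its counts were 1136 in the control, 786 in knockdown 1 and 854 in knockdown 2. Its ratio was 0.695 (0.634 to 0.762) and 0.702 (0.642 to 0.768), and the libraries labelled knockdown were alike at a ratio of 1.01 (0.916 to 1.11). STARD4-AS1, on the opposite strand over 2.18% of its exonic bases, had 36, 26 and 46 counts. NPC1, which exports cholesterol from lysosomes, had 8265, 8254 and 9751 counts, with ratios of 1.0 (0.973 to 1.03) and 1.1 (1.07 to 1.13).

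Of the 8 fatty acid enzymes, none was past the limit in the library labelled knockdown 1 and ELOVL6 was lower in the library labelled knockdown 2. By this limit 6.73% of the well-counted genes were higher and 4.30% lower in the former, and 13.0% and 10.8% in the latter. ELOVL6 (chromosome 4, 110045846 to 110199199), which elongates palmitate, had 996, 886 and 842 counts. Its ratio was 0.893 (0.815 to 0.979) and 0.79 (0.719 to 0.866), and it was the only gene of the 33 whose interval between the libraries labelled knockdown lay below 1, at a ratio of 0.884 (0.803 to 0.972). FASN lay at the other end, with 11835, 12718 and 15310 counts and ratios of 1.08 (1.05 to 1.11) and 1.21 (1.18 to 1.24). SCD had 24975, 21044 and 24879 counts, ratios of 0.846 (0.831 to 0.862) and 0.93 (0.914 to 0.947), so that the library labelled knockdown 1 stood lowest. The enzymes that provide and carboxylate acetyl-CoA lay closer to 1. ACLY had ratios of 1.03 and 1.06, ACSS2, the acetyl-CoA synthetase that uses acetate, 1.08 and 1.18, and ACACA, the acetyl-CoA carboxylase, 0.912 and 0.973. FADS1 and FADS2, the neighbouring desaturases of polyunsaturated fatty acids, had ratios of 0.983 and 0.987 for the former and 0.973 and 1.07 for the latter.

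The base composition of the genes moved with these ratios. Over the well-counted genes, divided into 5 classes of GC content, the median log2 ratio to the control ran from -0.13 in the class of lowest GC to 0.15 in that of highest GC in the library labelled knockdown 1, and from -0.23 to 0.28 in the library labelled knockdown 2. The 33 genes followed the same order in both libraries. In the library labelled knockdown 1, the 7 of lowest GC had a median of -0.20 and the 8 of highest GC a median of 0.11, with -0.14, -0.02 and 0.03 between them. In the library labelled knockdown 2, these medians were -0.19 and 0.37, with 0.03, 0.07 and 0.13 between them. Across the 33 genes, Pearson's r of the log2 ratio with GC content was 0.46 and 0.63 and Spearman's rho 0.54 and 0.68 for the 2 libraries, close to 0.49 and 0.66 and to 0.54 and 0.70 over 10859 well-counted genes. These are correlations across genes, which share libraries and the control and are not independent. MVK, PMVK, MVD, LSS and TM7SF2, each higher past the limit in the library labelled knockdown 2, are all in the class of highest GC (58.5% to 64.1%), and STARD4 (38.2%) is in the lowest. CYP51A1 (40.9%) and INSIG2 (37.3%) lay above the control although their GC content was low.

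**Figure D3:**
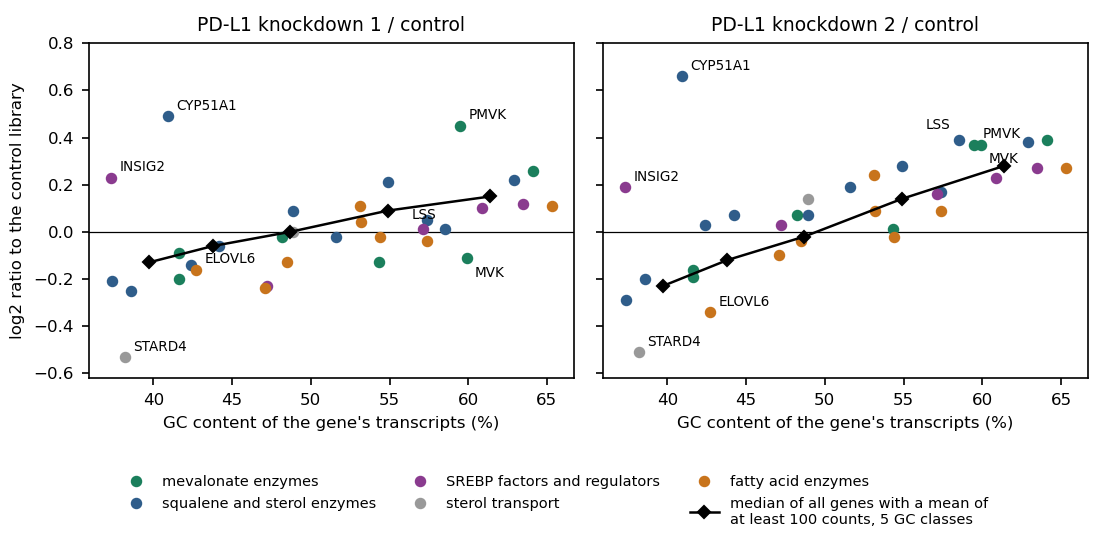
Log2 ratio to the control against transcript GC content (%) for the library labelled knockdown 1 (left) and knockdown 2 (right), with the 33 genes as points coloured by role and the medians of 5 GC classes of well-counted genes as black diamonds. The medians run from -0.13 to 0.15 on the left and from -0.23 to 0.28 on the right, and CYP51A1 lies far above them in both.

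When the trends with GC content and gene length were removed, fewer of the 33 genes stood apart from the control in the library labelled knockdown 2. In the library labelled knockdown 1, PMVK, CYP51A1 and INSIG2 were then higher past the limit and STARD4 lower, where 4.91% and 2.96% of the well-counted genes were. In the library labelled knockdown 2, CYP51A1 and INSIG2 were higher and none was lower, beside 5.59% and 5.12%. Between the libraries labelled knockdown, MVK and INSIG1 were higher and none lower, beside 3.53% and 4.33%. The log2 ratio of STARD4 moved from -0.53 to -0.39 in the library labelled knockdown 1 and from -0.51 to -0.31 in the library labelled knockdown 2. That of MVD moved from 0.39 to 0.04 in the library labelled knockdown 2, that of TM7SF2 from 0.38 to 0.10 and that of FASN from 0.27 to -0.05. CYP51A1 moved further from the control, from 0.49 to 0.58 and from 0.66 to 0.86, and INSIG2 from 0.23 to 0.41 and from 0.19 to 0.48. Between the libraries labelled knockdown, MVK moved from 0.49 to 0.37, INSIG1 from 0.26 to 0.33, past the limit, and LSS from 0.38 to 0.29, no longer past it. The median over the 33 became -0.03 and 0.04 to the control and 0.07 between the libraries labelled knockdown. The part of GC content in the values of single genes was not tested beyond this.

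**Figure D4:**
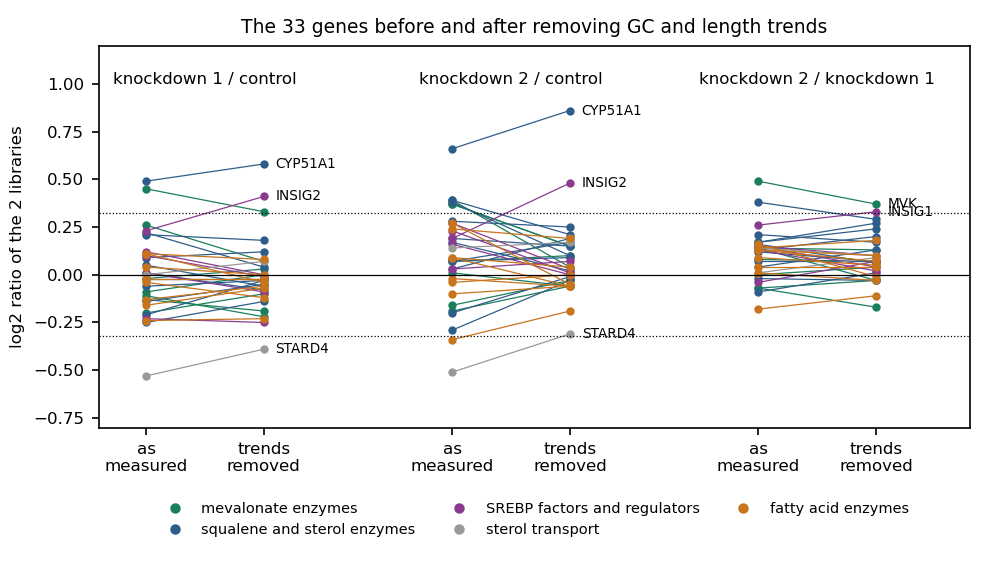
Log2 ratio of each of the 33 genes in the 3 pairs of libraries, as measured and after removing the trends with GC content and length, joined by a line per gene and coloured by role, with dotted lines at the limits of 25% above and 20% below. In the library labelled knockdown 2, CYP51A1 and INSIG2 end above the upper line, at 0.86 and 0.48, and STARD4 ends at -0.31.

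Other well-counted genes of sterol metabolism lay within the limit almost throughout. Of all well-counted genes, 6.73% were higher and 4.30% lower by this limit in the library labelled knockdown 1, and 13.0% and 10.8% in the library labelled knockdown 2. Between the libraries labelled knockdown the shares were 4.77% and 5.52%. Of 6 further genes of sterol synthesis and uptake, none was past the limit in any pair of libraries, and their median log2 ratio to the control was -0.01 and 0.05. Of 7 genes that store and move cholesterol none was past it either, with medians of -0.10 and -0.08. Among 10 genes that process SREBP or degrade sterol-regulated proteins, FBXW7, a ubiquitin ligase subunit that marks nuclear SREBP for degradation, was lower in the library labelled knockdown 2, with 136, 112 and 102 counts and a ratio of 0.7 (0.536 to 0.912). MBTPS2, the intramembrane protease that releases SREBP, had 502, 518 and 437 counts. Its ratio was 0.813 (0.714 to 0.926) in the library labelled knockdown 2, just short of the limit, and 0.784 (0.689 to 0.893), past it, between the libraries labelled knockdown. Of 5 genes of the sterol sensor LXR and its targets, NR1H2, which encodes one form of it, had 825, 1014 and 1149 counts, with ratios of 1.23 (1.13 to 1.35) and 1.3 (1.19 to 1.42). ABCA1, the cholesterol exporter, had 179, 137 and 166 counts, with ratios of 0.769 (0.611 to 0.966) and 0.866 (0.697 to 1.08).
Of 20 further genes of fatty acid synthesis, elongation and activation, none was higher and 1 lower in the library labelled knockdown 1, and 2 were higher and 5 lower in the library labelled knockdown 2. The shares of all well-counted genes were 6.73% higher and 4.30% lower in the former and 13.0% and 10.8% in the latter. The elongase gene ELOVL7 was lower in both, with 336, 242 and 287 counts and ratios of 0.723 (0.611 to 0.856) and 0.798 (0.679 to 0.937). HSD17B12, a reductase of the elongation cycle, had 508, 429 and 396 counts, with ratios of 0.848 (0.744 to 0.966) and 0.728 (0.637 to 0.832). SLC25A1, the mitochondrial citrate carrier that feeds ACLY, had 1599, 1833 and 2266 counts, with ratios of 1.15 (1.08 to 1.23) and 1.32 (1.24 to 1.41). GC content was 66.2% in SLC25A1, and 38.4% and 41.0% in ELOVL7 and HSD17B12.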

How the data were processed

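RNA-seq data of 3 DU145 libraries were used. The authors deposited, per gene, raw counts and the FPKM calculated from those counts and the listed gene length. The submitters' processing notes name Bowtie2 2.0.6, TopHat2 2.0.9, Cufflinks 2.1.1 and Cuffdiff 2.1.1. The counting tool, its strand setting and the genome build are not given in the sources used here. All 58735 gene identifiers with their starts and ends matched GENCODE v29 (GRCh38), from which GC content (58676 genes), shared 31-base words and exonic overlaps were calculated.

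Libraries were scaled with TMM (edgeR 4.0.16 in R 4.3.3) on the 19849 genes with at least 10 counts summed. With 1 library per condition no test was made. Ratios were given with exact 95% intervals (Clopper-Pearson, scipy 1.17.1), which cover counting error only, since each condition is 1 library. They may be too narrow even for that, since reads without molecular identifiers can be copies of one molecule. A count of 0 allows up to 3 counts, or 0.203, 0.204 and 0.19 CPM. Genes more than 25% above or 20% below were counted and set beside the well-counted genes (mean count 100 or more). The interval calculation was run on simulated counts that hold counting error only (Poisson). This checks the code and says nothing about spread between libraries. GC and length trends were removed as means of 20 classes each.

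The members and lists were chosen with earlier results of these data known. Described one by one were members past the limit in any pair of libraries, SREBF1, SREBF2, SCAP, INSIG1 and INSIG2, and at most 3 well-counted genes per pathway list with the largest log2 ratio past the limit. Other members were named for their role or as the ends of a range, after their values were seen. Alternatives were library totals, DESeq2 1.42.0 size factors, a prior count of 2, no count minimum, a minimum mean of 100, log2(FPKM + 1), 1.5-fold, the interval, a length trend, GC and length trends, and members with under 10% shared words and overlap. Proteins were not analysed here.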

Additional observations from a re-analysis of the deposited data

How the results depend on the processing

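The number of the 33 genes past the limit depended mostly on the limit itself. Past 1.5-fold, the counts of genes higher and lower were 0 and 0 in the library labelled knockdown 1, 1 and 0 in the library labelled knockdown 2, and 0 higher between the 2. By the counting interval they were 9 and 11, 18 and 7, and 18 and 1. With the gene length trend removed, 1 gene was lower in the library labelled knockdown 2. With GC content and length trends removed, an alternative added after seeing the data, 2 were higher and 0 lower there, and 43 of the 99 log2 ratios (33 genes in 3 pairs of libraries) moved by more than their counting error. Without the 7 genes that share sequence with others, also added afterwards, 1 gene was higher in the library labelled knockdown 1. Library totals, DESeq2 size factors, a prior count of 2, no minimum, a minimum mean of 100 counts and log2(FPKM + 1) left every count within 1.5 times and every median within counting error (0.10 to 0.11 log2), and no setting run turned the direction of a gene past the limit. No paired analysis was possible because each condition is 1 library, and for the same reason no library could be left out.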

Other observations

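Genes that use the products of these routes were also measured. Of 13 genes of fatty acid oxidation that were well counted (mean of 100 or more), 3 were more than 25% higher in the library labelled knockdown 1 and the same 3, CPT2, ACADS and ETFB, in the library labelled knockdown 2. Of all well-counted genes 6.73% and 13.0% were higher by this limit, and 4.30% and 10.8% lower. ETFDH, named after its values were seen, passes electrons from the flavoprotein to ubiquinone. It was lower by this limit in the library labelled knockdown 1, with 158, 124 and 144 counts and ratios of 0.788 (95% counting interval 0.618 to 1.0) and 0.851 (0.674 to 1.07), and none was lower in the library labelled knockdown 2. CPT2, the inner carnitine palmitoyltransferase of mitochondria, had 154 control counts, and 215 and 278 in the libraries labelled knockdown 1 and 2, with ratios of 1.4 (95% counting interval 1.13 to 1.74) and 1.69 (1.38 to 2.07). ACADS, the short-chain acyl-CoA dehydrogenase, had 123, 195 and 219 counts, with ratios of 1.59 (1.26 to 2.01) and 1.66 (1.33 to 2.09). ETFB, a subunit of the electron transfer flavoprotein, had 183, 233 and 262 counts, with ratios of 1.28 (1.05 to 1.56) and 1.34 (1.1 to 1.62). For each of the 3 the control was lowest, and their GC content was 49.6%, 64.4% and 52.6%. Between the libraries labelled knockdown, 0 of the 13 were higher past the limit and 1 was lower, beside 4.77% and 5.52% of well-counted genes. That gene, CPT1A, had 577, 609 and 511 counts, with a ratio of 0.78 (0.692 to 0.879) between them. Its ratios to the control were 1.06 (0.944 to 1.19) and 0.827 (0.733 to 0.933). The median log2 ratio of the 13 genes was 0.10 and 0.14, and 0.10 and 0.06 with GC content and length trends removed. Both ratios to the control share that library.

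Of 12 genes of the isoprenoid branch, which makes dolichol, ubiquinone side chains and protein prenyl groups, 1 was higher past the limit in the library labelled knockdown 1 and 2 were lower in the library labelled knockdown 2, beside 6.73% higher and 10.8% lower of all well-counted genes. RABGGTA, a subunit of the enzyme that prenylates Rab proteins, had 195, 275 and 242 counts, with ratios of 1.42 (1.17 to 1.71) and 1.16 (0.956 to 1.41). PGGT1B, a subunit of a protein prenyltransferase, had 563, 497 and 382 counts, with ratios of 0.887 (0.784 to 1.0) and 0.634 (0.555 to 0.723). NUS1, a subunit of the prenyltransferase for dolichol, had 909, 782 and 740 counts, with ratios of 0.864 (0.784 to 0.952) and 0.76 (0.689 to 0.839). PGGT1B and NUS1 have a GC content of 35.9% and 38.0%, in the class of lowest GC.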
